A study of Homo sapiens with 30 samples.

Results

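The 33 genes described here belong to the transcriptional response led by ATF4 to shortage of amino acids and to stress of the endoplasmic reticulum. They were taken from a list of names with no threshold on their values, though the list was drawn up with earlier results of these data known, and all 33 were found among the 38122 genes of the deposited RNA sequencing table. The table holds 30 libraries of 3 established human cancer lines, FaDu from a squamous carcinoma of the hypopharynx, HCT116 from a colon carcinoma and SiHa from a squamous carcinoma of the cervix. Each line was grown at pH 7.4 or pH 6.5, in DMEM with 10 mM glucose, 2 mM glutamine, 10% serum, 25 mM HEPES and 25 mM PIPES, which both pH groups shared. Cells of the acid groups had been held at pH 6.5 for at least 1 month, and each of the 6 groups held 5 libraries. Whether replicate libraries derive from separate cultures or separately adapted populations is not stated in the labels, and p-values therefore cover only the spread among these libraries, which may be technical.

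In the integrated stress response, kinases that sense empty tRNAs, misfolded protein, heme shortage or double-stranded RNA phosphorylate the translation factor eIF2α. Most protein synthesis then slows, while ATF4 mRNA is translated more, so ATF4 activity is set largely at the level of protein and its mRNA is a partial readout. ATF4, often paired with a C/EBP partner such as CEBPG, binds C/EBP-ATF response elements and raises genes for amino acid synthesis and uptake, for tRNA charging, for feedback control and, under lasting stress, for the factor DDIT3. Tumour cells draw on the same genes for serine, glycine, proline and asparagine.

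The comparisons leave out 9 libraries because of what they contain. Libraries labelled FaDu pH 7.4 replicates 2 to 5 carried genes restricted to HCT116 at 30.6 to 80.4% of their HCT116 level. Libraries labelled HCT116 pH 6.5 replicates 5 to 7 carried genes restricted to SiHa at 37.5 to 104% of their SiHa level. Genes restricted to HCT116 stood at 58.8% in replicate 5 of the latter, but at only 1.94% in replicate 6 and 0.581% in replicate 7. SiHa pH 7.4 replicates 6 and 7 held 2817 and 2863 normalised counts of VIM, a mesenchymal filament gene, against at most 165 in the other 21 libraries. The 165 was in SiHa pH 7.4 replicate 5, a control that was kept, with 2.04 in replicate 1 and 28.4 in replicate 4. COL1A2 was at 3.06, 10.4 and 42.9 in replicates 1, 4 and 5, and at 938 and 1377 in replicates 6 and 7. The part of this in the SiHa changes was not tested. Genes restricted to another line stood at no more than 0.0708% in the 21 remaining libraries. The restricted genes were chosen on FaDu and SiHa at pH 6.5 and HCT116 at pH 7.4. They had to be at no more than 1% in the other lines, so low values in these groups follow from the choice. In the remaining libraries outside these groups the highest value was 0.0465%, in HCT116 pH 6.5 replicate 1. Without the 9 libraries, 5 against 3 remained in SiHa, 2 against 5 in HCT116 and 5 against 1 in FaDu, with 25.3 to 50.8 M reads each. Where a member's call differs with the libraries as labelled, that value is given too, for FaDu in the account of its mixed controls. No SiHa call was lost that way. Of 9 colon markers 5 or 6 reached a mean of 10 in HCT116, with the colon factor CDX1 at 0 in every remaining HCT116 library. All 7 squamous markers did in FaDu and 5 or 6 of 7 in SiHa. In HCT116 they numbered 6 of 7 at pH 6.5 and 3 of 7 at pH 7.4, with summed levels of 9262 to 15982 and 11298 to 20361. The keratin KRT5 was at 721 and 897 in the acid HCT116 libraries against 8.60 to 41.0 in the controls, KRT14 at 738 and 811 against 20.6 to 65.3 and KRT6A at 730.2 and 239.5 against 2.12 to 14.7, and the part of this in the HCT116 results was not tested.

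Replicate 1 of SiHa and of HCT116 stood apart at both pH values. In these 4 libraries FOS, an immediate early gene that cells switch on within minutes of a stimulus, was at 29813 to 52891 normalised counts, against 184 to 1104 in the other 26. FOSB (11736 to 39952 against 58.7 to 318) and EGR1 (19008 to 47281 against 528 to 4258) were high in the same 4 libraries. These genes were looked up after values of ATF3 had been seen, and member calls that changed without the 4 libraries are given with the value from that fit. In bulk RNA, fewer cells expressing a gene and less RNA per cell cannot be told apart.

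Of the 26 members with a promoter entry in RefSeq (GRCh38.p14), 8 held the C/EBP-ATF response element TGATGNAA on either strand within 250 bases before to 50 after the start site. That is 30.8% of these members, beside 4.46% of all 27305 genes with an entry. The members were listed as genes of the response led by ATF4, which binds this element, so the shares are a description and no test. Counted per promoter the element was in 3.62% of all 35116 promoters, and the share per promoter of the members was not computed. ATF3, ASNS, CEBPG, SLC1A4 and SLC3A2 had more than 1 promoter entry, with the element in 1 of them, and distances are from the start of that entry. The 6 promoters below show where the element lies in members whose pH response is described, with the element in capitals (read on the opposite strand it is TTNCATCA). In FGF21 (chr19:48755274-48755523, plus strand) it begins 54 bases before the start site, in CHAC1 (chr15:40953221-40953470, plus strand) 209 bases, in ASNS (chr7:97872409-97872658, minus strand) 68 bases and in CEBPG (chr19:33373863-33374112, plus strand) 42 bases. SLC1A4 (chr2:64989381-64989410, plus strand) holds it 7 bases before the start and SLC3A2 (chr11:62881719-62881748, plus strand) 38 bases after, and for these a window of 30 bases is shown. ATF3 and SLC7A1 held it as well, 191 bases before and 8 bases after the start. A match is a description of the letters, and no binding was measured.
FGF21: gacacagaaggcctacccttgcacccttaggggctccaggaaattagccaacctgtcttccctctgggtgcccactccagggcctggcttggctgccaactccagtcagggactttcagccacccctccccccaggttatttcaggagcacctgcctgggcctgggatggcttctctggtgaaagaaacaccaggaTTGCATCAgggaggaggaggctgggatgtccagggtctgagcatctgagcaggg
CHAC1: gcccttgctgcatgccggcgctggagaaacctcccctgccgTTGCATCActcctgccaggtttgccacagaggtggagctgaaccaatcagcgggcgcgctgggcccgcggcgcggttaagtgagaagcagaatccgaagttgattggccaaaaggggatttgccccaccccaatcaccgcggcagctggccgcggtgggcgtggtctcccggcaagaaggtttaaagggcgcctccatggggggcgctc
ASNS: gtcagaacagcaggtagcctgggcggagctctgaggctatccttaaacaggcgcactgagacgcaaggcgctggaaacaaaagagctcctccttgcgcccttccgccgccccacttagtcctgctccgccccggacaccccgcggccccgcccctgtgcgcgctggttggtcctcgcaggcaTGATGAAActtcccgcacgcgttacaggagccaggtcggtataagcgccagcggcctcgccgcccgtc
CEBPG: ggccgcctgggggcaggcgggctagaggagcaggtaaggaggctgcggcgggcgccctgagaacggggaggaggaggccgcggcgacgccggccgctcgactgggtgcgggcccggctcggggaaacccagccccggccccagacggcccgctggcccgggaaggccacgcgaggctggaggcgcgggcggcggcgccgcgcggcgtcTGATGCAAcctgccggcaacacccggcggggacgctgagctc
SLC1A4: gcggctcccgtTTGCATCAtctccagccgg
SLC3A2: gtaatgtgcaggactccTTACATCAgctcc

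The response of the 33 genes to pH 6.5 differed between lines. In SiHa, 9 of 32 tested members were higher at pH 6.5 and 7 were lower, where 15.0% of all 18555 genes tested were called higher and 16.2% lower. HCT116 had 4 members higher and 4 lower of 32, where 9.11% of 18885 genes were called higher and 11.1% lower. FaDu had 0 higher and 19 lower of 33, where 4.24% of 19170 genes were called higher and 3.12% lower, and each FaDu change rests on 1 library at pH 7.4. A call is an adjusted p under 0.05 in limma, with Benjamini-Hochberg adjustment over all genes tested in that line. FGF21 was under the level for testing in SiHa and HCT116. The median log2 change of the members was 0.08 in SiHa, -0.05 in HCT116 and -1.14 in FaDu, beside -0.01 for all genes tested in each line.

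**Figure D1:**
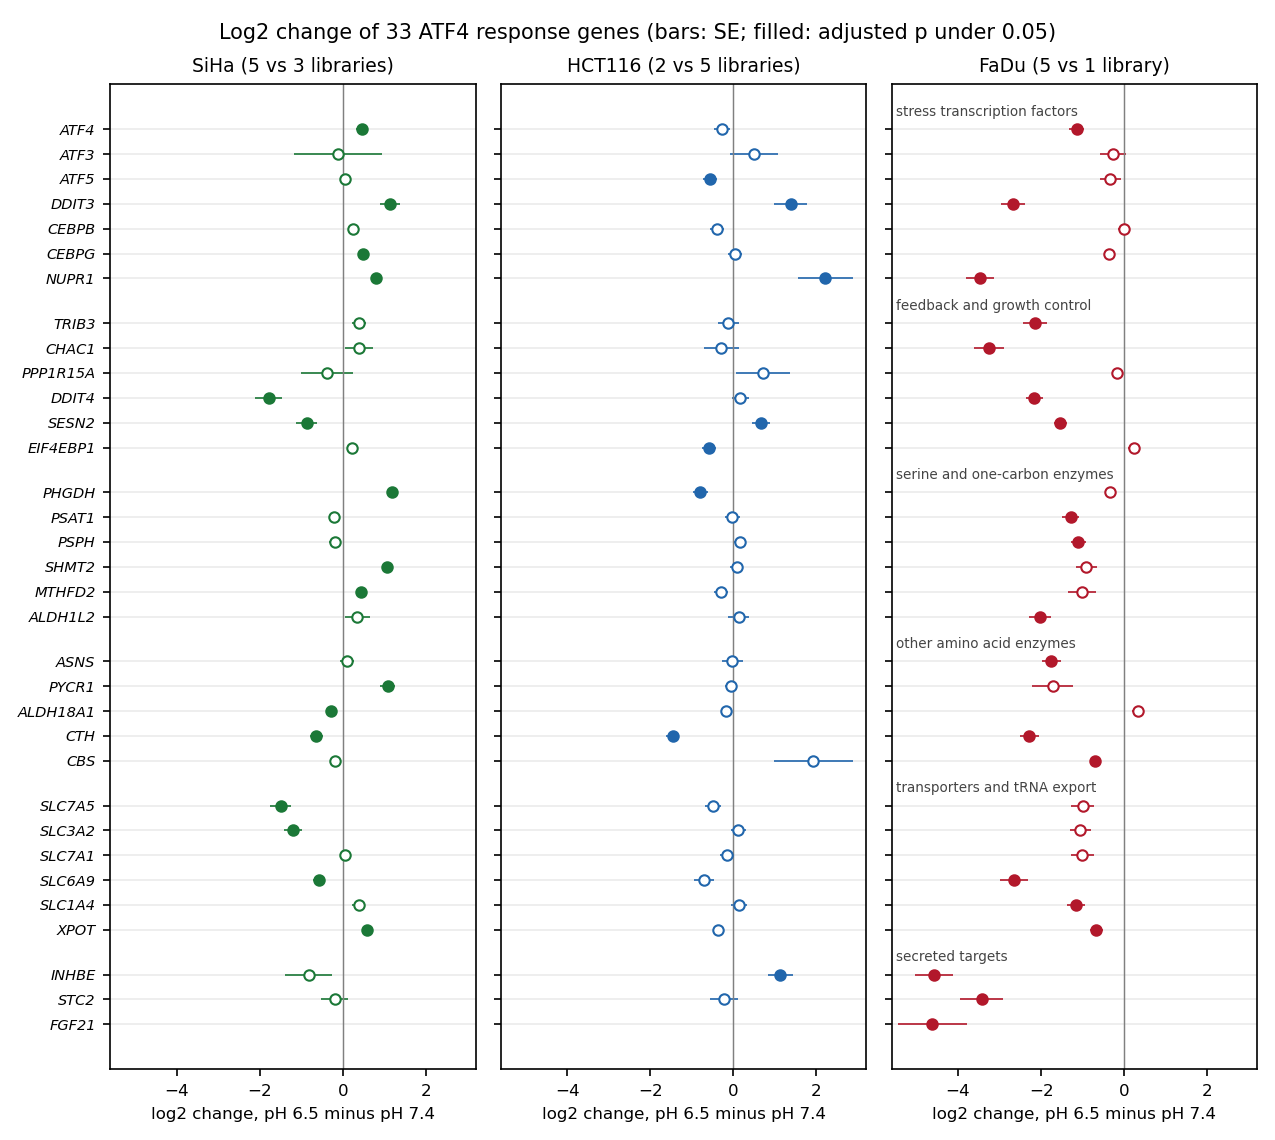
Log2 change of each of the 33 genes at pH 6.5 relative to pH 7.4 (x axis) in SiHa, HCT116 and FaDu, grouped by role. Points are limma estimates, bars are 1 SE, and filled points have an adjusted p under 0.05; SiHa shows changes in both directions, while the 19 filled points of FaDu all lie below 0.

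With all libraries as labelled, SiHa had 9 members higher and 8 lower (19.7% and 21.1% of all genes), HCT116 3 and 3 (8.56% and 9.62%) and FaDu 1 and 7 (24.0% and 22.3%). Without replicate 1 at both pH values, SiHa had 8 higher and 6 lower (12.2% and 12.7% of all genes) and HCT116, then 1 library against 4, had 1 higher and 10 lower (8.67% and 11.6%). DDIT3, NUPR1, SESN2 and CTH were called in all 3 lines, and of these CTH alone in the same direction, lower in each. Calls in opposite directions in different lines were made for 7 members, ATF4, DDIT3, NUPR1, SESN2, PHGDH, XPOT and INHBE. For ATF4, DDIT3, NUPR1, XPOT and INHBE the lower call is that of FaDu alone and rests on its 1 control. The shares of all genes called in 3 lines or in opposite directions were not computed, so these counts are a description. ATF3, CEBPB, PPP1R15A and SLC7A1 were called in none.

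In SiHa at pH 6.5, ATF4 and 3 other stress factors rose, together with PHGDH, SHMT2, MTHFD2 and PYCR1, enzymes that make serine, one-carbon units and proline, while both chains of the leucine transporter and the growth inhibitor DDIT4 fell. ATF4 (ENSG00000128272), the factor at the head of the response, stood at 16644, 14580.5, 11536, 11372 and 13551 normalised counts at pH 6.5 in replicates 1, 4, 5, 6 and 7, and at 11591, 8332 and 9335 at pH 7.4 in replicates 1, 4 and 5. Only pH 7.4 replicate 1 reached into the range of the acid libraries. The log2 change was 0.47 ± 0.14 (limma adjusted p = 0.0296), and it missed the threshold without pH 6.5 replicate 4 (adjusted p = 0.0585), pH 7.4 replicate 4 (adjusted p = 0.124) or pH 7.4 replicate 5 (adjusted p = 0.0994). DDIT3 (ENSG00000175197), the CHOP factor of prolonged stress, was at 538, 423, 256, 296 and 414 at pH 6.5 and at 222, 160.1 and 135 at pH 7.4. All 5 acid libraries lay above all 3 controls, a log2 change of 1.13 ± 0.24 (adjusted p = 0.00614).

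NUPR1 (ENSG00000176046), a small stress-induced chromatin protein, was at 3633, 2850.1, 2791, 3248 and 3665 at pH 6.5 against 2078, 1748 and 1722. The groups were clear of each other and the log2 change was 0.80 ± 0.12 (limma adjusted p = 0.000787). In 1 fit over all 21 libraries the call was lost (adjusted p = 0.145). CEBPG (ENSG00000153879), the partner of ATF4 on its response element, held 2151, 2563, 2134, 2287 and 3087 at pH 6.5 and 1561, 1824 and 1810.5 at pH 7.4. Every acid library exceeded every control (log2 change 0.49 ± 0.13, adjusted p = 0.0154), and the call was lost without pH 7.4 replicate 1 (adjusted p = 0.068). ATF5 (0.06) and CEBPB (0.26) were not called.

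ATF3, a rapidly induced repressor, held 4879.7, 635, 409.7, 452 and 930.0 at pH 6.5 and 8432, 339 and 309 at pH 7.4. Replicate 1 was far above the others of its group on both sides, as it was for FOS. The estimate was -0.12 ± 1.06 (limma adjusted p = 0.941), and 0.83 without replicate 1 (adjusted p = 0.0633). PPP1R15A, which directs the phosphatase that reverses eIF2α phosphorylation, showed the same excess, with 5677, 1914, 1379, 1514 and 1457 at pH 6.5 and 9432, 1565 and 1223 at pH 7.4. It was not called in SiHa with replicate 1 (-0.38) or without it (0.17).

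**Figure D2:**
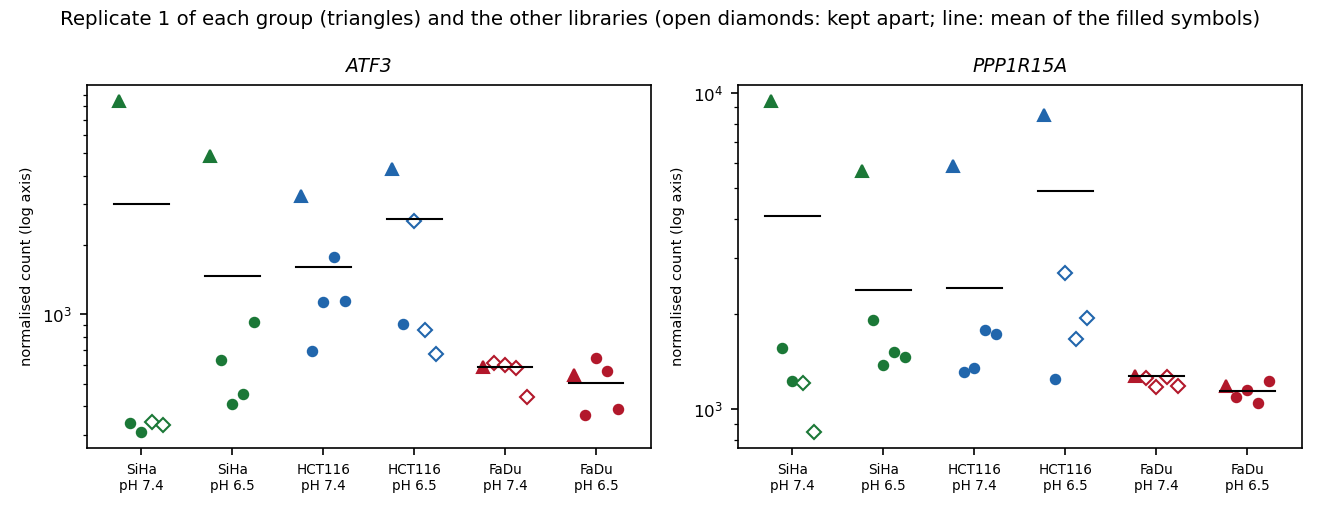
Normalised counts of ATF3 and PPP1R15A (log axes) in every library of the 6 groups, with replicate 1 as triangles, libraries kept apart as open diamonds and lines at the mean of the filled symbols. Replicate 1 is the highest library of its group in SiHa and HCT116 at both pH values, and not in FaDu at pH 6.5, where ATF3 was at 543.

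Among the feedback and growth control genes of SiHa, DDIT4 and SESN2 fell and none rose by limma, edgeR or DESeq2, with 1 higher at an unadjusted p under 0.05. DDIT4 (ENSG00000168209), an inhibitor of the TORC1 kinase, was at 3128, 1340.4, 2174, 1797 and 932 at pH 6.5 and at 4686, 6109.6 and 7345 at pH 7.4. No acid library reached the lowest control (log2 change -1.78 ± 0.32, limma adjusted p = 0.00222). SESN2 (ENSG00000130766), a leucine sensor that restrains TORC1, held 873, 555, 446, 463 and 499 at pH 6.5 against 1455, 693 and 998. Acid replicate 1 overlapped the controls, and the log2 change of -0.87 ± 0.25 (adjusted p = 0.0246) was lost without pH 6.5 replicate 5 or 6, or without pH 7.4 replicate 1 or 5 (adjusted p = 0.0508, 0.0536, 0.116 and 0.0739). The pseudokinase TRIB3 (0.38), CHAC1, which degrades glutathione (0.40), and the translation repressor EIF4EBP1 (0.22) were not called.

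Among the 6 serine and one-carbon enzymes, 3 rose in SiHa and none fell by limma, edgeR or DESeq2, or at an unadjusted p under 0.05. PHGDH (ENSG00000092621), the first enzyme of serine synthesis, was at 12638, 9535, 8585, 9895 and 11286 at pH 6.5 and at 3811, 4901 and 4919 at pH 7.4. The lowest acid library was above the highest control, a log2 change of 1.19 ± 0.13 (limma adjusted p = 0.000192). SHMT2 (ENSG00000182199), which splits serine into glycine and a one-carbon unit in mitochondria, was at 5917, 7366, 5776, 6728 and 7786 against 2973, 3075 and 3535. It separated the groups in the same way (log2 change 1.07 ± 0.12, adjusted p = 0.000158). MTHFD2 (ENSG00000065911), the next mitochondrial enzyme, held 2859.6, 3161, 2338, 2606 and 3110.1 at pH 6.5 and 1749, 2257 and 2173 at pH 7.4. Its smaller change of 0.45 ± 0.12 (adjusted p = 0.0185) lost its call without replicate 1 at both pH values (adjusted p = 0.0978), without pH 7.4 replicate 1 alone (adjusted p = 0.0855) and in 1 fit over the 21 libraries (adjusted p = 0.0652). PSAT1 and PSPH, the enzymes that complete the serine pathway after PHGDH, were not called (-0.21 and -0.19). PSAT1 was called lower with the libraries as labelled (-0.28, adjusted p = 0.0216) and without replicate 1 (-0.31, adjusted p = 0.0325). ALDH1L2, a mitochondrial folate enzyme, was not called either (0.35).

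The 2 proline enzymes of SiHa changed in opposite directions. PYCR1 (ENSG00000183010), which makes the last step to proline, was at 1946, 2919, 1955, 2111 and 3329.6 at pH 6.5 and at 1163, 1029 and 1198 at pH 7.4. All acid libraries exceeded the controls (log2 change 1.08 ± 0.18, limma adjusted p = 0.00145). ALDH18A1 (ENSG00000059573), which makes the first step from glutamate, held 4109, 5103, 4484, 4685 and 4749 against 5572, 5583 and 5689. The change of -0.28 ± 0.09 (adjusted p = 0.0282) was lost in 7 of 20 alternatives, among them without pH 6.5 replicate 5 or 6, without each pH 7.4 library in turn and without replicate 1 at both pH values (adjusted p = 0.0706). CTH (ENSG00000116761), which releases cysteine from cystathionine, held 260.1, 403, 293, 301 and 383 at pH 6.5 and 524, 489.7 and 496 at pH 7.4. Every acid library was under every control (log2 change -0.64 ± 0.16, adjusted p = 0.0109). ASNS, asparagine synthetase (0.11), and CBS, the enzyme before CTH (-0.18), were not called.

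Both chains of the large neutral amino acid exchanger fell in SiHa. SLC7A5 (ENSG00000103257), its transport chain, was at 75155, 41626, 42581, 36609.5 and 27749 at pH 6.5 and at 119076, 120092 and 118874 at pH 7.4. All acid libraries were lower, with replicate 1 the nearest to the controls (log2 change -1.50 ± 0.24, limma adjusted p = 0.00141). SLC3A2 (ENSG00000168003), its membrane chain, held 25477, 16220.3, 14307, 12559 and 10768 against 36999, 31135 and 36694, and again no acid library reached a control (log2 change -1.20 ± 0.22, adjusted p = 0.00286). The 2 control libraries kept apart, pH 7.4 replicates 6 and 7, were lower than the other controls, at 89085 and 51627 for SLC7A5 and 25732 and 19829.8 for SLC3A2. With them included the changes were -1.17 and -0.95. XPOT (ENSG00000184575), which exports tRNA from the nucleus, rose from 4497, 5146 and 4857 at pH 7.4 to 5791, 8231, 6696, 6984 and 8959 at pH 6.5. The groups did not overlap (log2 change 0.59 ± 0.13, adjusted p = 0.00766). The glycine transporter SLC6A9 fell (-0.57 ± 0.14, adjusted p = 0.0118), and its call was lost without pH 7.4 replicate 5 (adjusted p = 0.0522) and without replicate 1 at both pH values (adjusted p = 0.0517). The cationic transporter SLC7A1 (0.05) and SLC1A4, which carries serine and alanine (0.38), were not called.

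**Figure D3:**
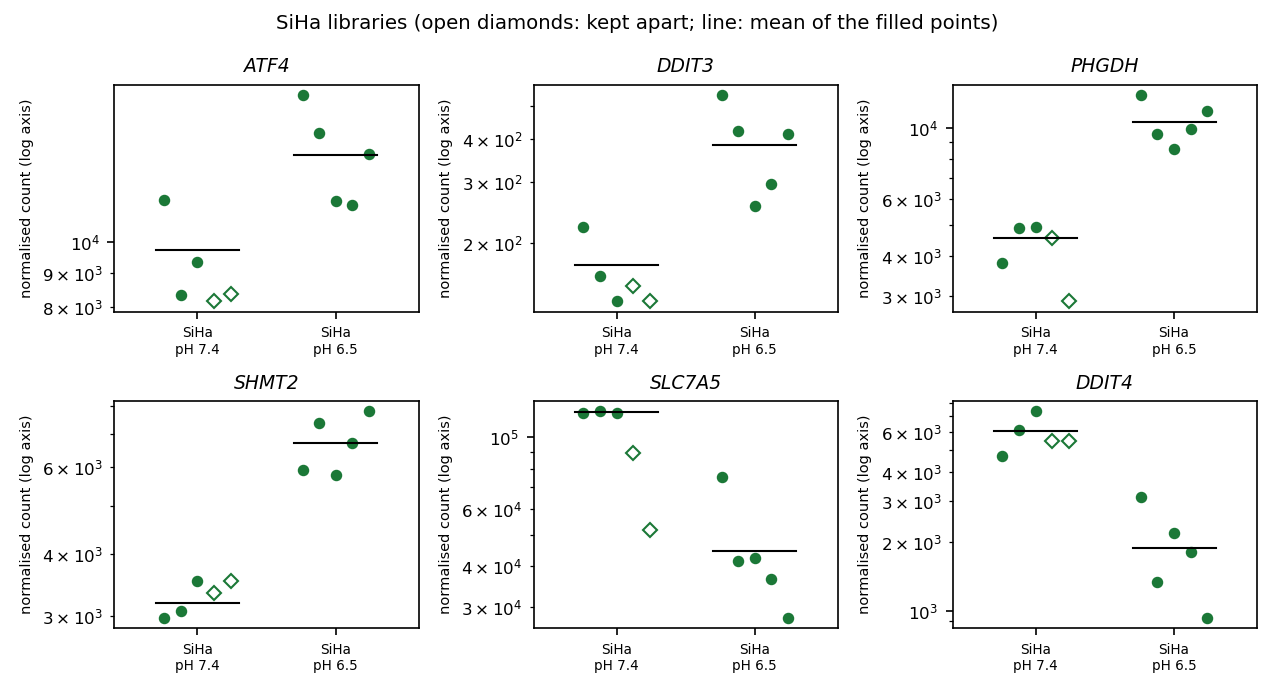
Normalised counts (log axes) of ATF4, DDIT3, PHGDH, SHMT2, SLC7A5 and DDIT4 in the SiHa libraries at pH 7.4 and pH 6.5, with lines at group means and the 2 libraries kept apart as open diamonds. ATF4, DDIT3, PHGDH and SHMT2 are higher at pH 6.5 and SLC7A5 and DDIT4 lower, and ATF4 alone of the 6 overlaps between the filled points.

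No secreted target was called in SiHa. STC2, a stress-induced glycoprotein, was at 271 to 830 at pH 6.5 and 448 to 644 at pH 7.4 (-0.20, not called). INHBE, an activin subunit, held 2.56 to 25.6 at pH 6.5 and 8.52 to 20.4 at pH 7.4 (-0.82, not called). FGF21, a fasting hormone, was at no more than 2.70 in any remaining SiHa library. The limit that a count of 0 leaves, 3 reads, corresponds to 2.08 to 4.20 normalised counts across the 21 libraries (counting error only), so FGF21 was at or under what could be detected at this depth.

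Among the 96 different genes of 6 other lists tested in SiHa 19 rose and 11 fell, which is 19.8% and 11.5% beside 15.0% and 16.2% of all genes, so the lists are given as a description. Of 20 cytosolic aminoacyl-tRNA synthetases, which charge tRNAs, 5 rose and 2 fell. The alanyl-tRNA synthetase AARS1 changed by 0.83 ± 0.12 (limma adjusted p = 0.000861) and the valyl-tRNA synthetase VARS1 by 0.55 ± 0.13 (adjusted p = 0.00878), and the tryptophanyl-tRNA synthetase WARS1 by -0.45 ± 0.10 (adjusted p = 0.00642). Of 13 other amino acid transporters, 1 rose and 4 fell, among them the glutamate carriers SLC1A3 (-1.88 ± 0.26) and SLC1A1 (-1.61 ± 0.21) and the neutral carrier SLC6A15 (-1.37 ± 0.41). Of 19 folate and methionine enzymes 5 rose and 1 fell, with thymidylate synthase TYMS at 0.80 ± 0.11, GGH at 0.74 ± 0.12 and MTHFD2L at -0.69 ± 0.16. Among 15 genes of eIF2α kinases, eIF2B and their regulators 3 rose and 1 fell, including the mitochondrial stress relays OMA1 (0.46 ± 0.14) and DELE1 (0.32 ± 0.08) and the eIF2B subunit EIF2B4 (-0.36 ± 0.09). Of 14 other reported ATF4 targets 1 rose, the autophagy receptor SQSTM1 (0.99 ± 0.12, adjusted p = 0.000312), and 1 fell, VEGFA (-0.37 ± 0.12). Of 16 targets of the ATF6 and XBP1 branches of the unfolded protein response 4 rose, such as XBP1 (0.76 ± 0.13) and EDEM1 (0.41 ± 0.09), and 2 fell, DNAJB9 among them (-0.53 ± 0.18). The calls of OMA1, EIF2B4, SLC6A15, VEGFA and DNAJB9 were lost without replicate 1 at both pH values (adjusted p = 0.0802, 0.0641, 0.0789, 0.184 and 0.117).

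In HCT116, CTH and PHGDH fell and DDIT3 and INHBE rose, but only CTH kept its call in every alternative. The 2 remaining acid libraries differed widely from each other. Replicate 1, which is high in FOS, held the higher value for 27 of the 32 members with a mean of at least 10, and replicate 3 for 5. CTH (ENSG00000116761) was at 876 and 806 at pH 6.5 in replicates 1 and 3 and at 1967, 2602, 2541, 2620.0 and 1994 at pH 7.4 in replicates 1, 3, 5, 6 and 7. Both acid libraries lay far under all 5 controls, a log2 change of -1.47 ± 0.15 (limma adjusted p = 5.12e-05), and -1.59 without replicate 1 (adjusted p = 0.000464).

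ATF4 itself was at 18649.7 and 10480.1 at pH 6.5 and at 18167, 17657, 15150.0, 17999 and 15839 at pH 7.4. Acid replicate 1 was above all controls and replicate 3 below all of them, and the change of -0.28 ± 0.19 was not called (limma adjusted p = 0.327). Without replicate 1 at both pH values ATF4 was called lower, at -0.67 (adjusted p = 0.00832), from 1 acid library against 4. DDIT3 held 730.2 and 209 at pH 6.5 against 180.1, 115, 124, 200.2 and 148. Both acid libraries exceeded all controls, though replicate 3 only narrowly, a log2 change of 1.37 ± 0.39 (adjusted p = 0.027). The call was lost without pH 6.5 replicate 1 (adjusted p = 0.392), without pH 7.4 replicate 3, 5 or 7 (adjusted p = 0.0531, 0.0595 and 0.0536) and without replicate 1 at both pH values (adjusted p = 0.24).

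NUPR1 was low in HCT116, at 68.7 and 27.4 at pH 6.5 and 10.6, 27.9, 4.03, 3.68 and 9.17 at pH 7.4. The groups overlapped at about 28, and the change of 2.22 ± 0.66 (limma adjusted p = 0.0339) was lost without replicate 1 at both pH values (adjusted p = 0.24), without pH 6.5 replicate 1 or 3 and without pH 7.4 replicate 5 or 7. The libraries labelled HCT116 pH 6.5 replicates 5, 6 and 7, which carry SiHa genes, held 988, 2736 and 3577, beside 2791 to 3665 in SiHa at pH 6.5. Including them raised the estimate to 5.57, and that of CBS, the enzyme before CTH, from 1.92 to 6.44, which was then called (adjusted p = 0.0354). ATF5, a factor of the same family as ATF4, held 1260.1 and 779 at pH 6.5 against 1409.8, 1357, 1528, 1662 and 1379. Both acid libraries were under the controls (-0.56 ± 0.18, adjusted p = 0.0434), and this call was lost in 10 of 19 alternatives, with the libraries as labelled (adjusted p = 0.936) and without pH 6.5 replicate 3 (adjusted p = 0.375) or pH 7.4 replicates 3, 5, 6 or 7 among them. Without replicate 1 at both pH values the change was -0.92. ATF3 (0.50), CEBPB (-0.39) and CEBPG (0.05) were not called, and CEBPB was called lower without replicate 1 (-0.62, adjusted p = 0.0173).

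SESN2 in HCT116 was at 1362 and 889 at pH 6.5 and 934, 661, 644, 738 and 556 at pH 7.4. The groups overlapped, and the rise of 0.66 ± 0.21 (limma adjusted p = 0.0473) was lost in 11 of 19 alternatives, including without pH 6.5 replicate 1 (adjusted p = 0.412), without pH 7.4 replicate 3, 5, 6 or 7, without replicate 1 at both pH values (0.46, adjusted p = 0.0905), and with the libraries as labelled (0.33, adjusted p = 0.286). EIF4EBP1 (ENSG00000187840), which binds the cap-binding factor when TORC1 is low, held 2220.3 and 1374 against 2654, 2901, 2852, 2382 and 2398. Both acid libraries were lower (-0.59 ± 0.17, adjusted p = 0.0335), and the call was lost without pH 6.5 replicate 3 (adjusted p = 0.312) or pH 7.4 replicate 3 or 5 (adjusted p = 0.0696 and 0.0752). Its change was -0.93 without replicate 1 at both pH values and -0.97 with the libraries as labelled. TRIB3 (-0.12), CHAC1 (-0.30), PPP1R15A (0.71) and DDIT4 (0.17) were not called.

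PHGDH moved in HCT116 in the direction opposite to SiHa. It was at 2587 and 1461 at pH 6.5 and at 3081, 3619, 3291, 3678 and 3281 at pH 7.4. Both acid libraries were under every control, a log2 change of -0.80 ± 0.19 (limma adjusted p = 0.0104) that missed the threshold without pH 6.5 replicate 3 (adjusted p = 0.0963). The libraries kept apart held 3567, 10224 and 13436, and with them the estimate was 0.41 (adjusted p = 0.572). Without replicate 1 at both pH values it was -1.24. The other 5 serine and one-carbon enzymes, from MTHFD2 at -0.30 to PSPH at 0.15, were not called. MTHFD2 was called lower without replicate 1 (-0.53, adjusted p = 0.0136) and with the libraries as labelled (-0.59, adjusted p = 0.0389).

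None of the transporters or XPOT was called by limma or edgeR in HCT116 with both acid libraries. At an unadjusted p under 0.05, 3 were lower and 0 higher, and DESeq2 called 1 lower, SLC6A9 (adjusted p = 0.0305), as did limma in 1 fit over the 21 libraries (adjusted p = 0.036). The limma estimates ran from -0.71 for SLC6A9 to 0.13 for SLC1A4. Without replicate 1 at both pH values, SLC7A5 (-0.92, limma adjusted p = 0.00143), SLC6A9 (-0.96, adjusted p = 0.0061) and XPOT (-0.49, adjusted p = 0.0177) were called lower, again from 1 acid library. ASNS (-0.03), PYCR1 (-0.07) and ALDH18A1 (-0.18) were not called.

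INHBE, the activin subunit, held 67.5 and 70.7 at pH 6.5 in HCT116 and 40.2, 32.2, 31.2, 22.1 and 32.1 at pH 7.4. The 2 acid libraries were close to each other and above all controls, a log2 change of 1.13 ± 0.29 (limma adjusted p = 0.0179) that was 1.25 without replicate 1 at both pH values (adjusted p = 0.0376). It missed the threshold with either acid library left out alone (adjusted p = 0.0855 and 0.0795), in 1 fit over the 21 libraries (adjusted p = 0.117) and with the libraries as labelled (-0.56, adjusted p = 0.62). STC2 was not called (-0.23), and FGF21 was at no more than 2.29.

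Among the 94 different genes of the 6 other lists tested in HCT116 7 rose and 10 fell, which is 7.45% and 10.6%, near the 9.11% and 11.1% of all genes. Among the eIF2α kinase genes, EIF2AK2, the kinase PKR that senses double-stranded RNA, rose from a mean of 2761 to 8217 (1.58 ± 0.12, limma adjusted p = 3.51e-06) and PPP1R15B, the constitutive partner of the eIF2α phosphatase, fell (-0.65 ± 0.14, adjusted p = 0.0061). These were the 2 of 15 called. None of 20 tRNA synthetases passed limma's adjusted threshold in either direction. At an unadjusted p under 0.05, 4 were lower and 0 higher, edgeR called 0 and DESeq2 called 1 lower, and 6 were called lower without replicate 1 at both pH values. Of 12 other amino acid transporters 1 rose, SLC43A2 (1.39 ± 0.19), and 6 fell, such as SLC1A3 (-2.03 ± 0.24) and SLC7A8 (-1.45 ± 0.32). Of 20 folate and methionine enzymes 3 fell, GLDC (-0.69 ± 0.21) and MAT2A (-0.39 ± 0.11) among them. Of 12 other ATF4 targets 2 rose, the lysosomal protein LAMP3 (2.70 ± 0.28, adjusted p = 4.94e-05) and the stress cytokine GDF15 (1.56 ± 0.17, adjusted p = 7.87e-05). Both kept their call without replicate 1 (adjusted p = 0.000875 and 0.00194) and neither was called with the libraries as labelled (adjusted p = 0.226 and 0.53). SLC43A2, SLC1A3, GLDC and MAT2A also lost their calls as labelled (lowest adjusted p = 0.071). Of 16 ATF6 and XBP1 targets 3 rose, namely CRELD2 (0.81 ± 0.16), DNAJB9 (0.66 ± 0.19) and the chaperone HSPA5 (0.52 ± 0.16), and DNAJB9 and HSPA5 lost their calls without replicate 1 (adjusted p = 0.193 and 0.29) and as labelled (adjusted p = 0.811 and 0.611). Without replicate 1 the call of GLDC was lost too (adjusted p = 0.108).

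In FaDu, 19 of the 33 genes were lower in the 5 acid libraries than in pH 7.4 replicate 1, the only FaDu control without HCT116 genes. None was higher by limma, edgeR or DESeq2, or at an unadjusted p under 0.05. All 3 secreted targets, 4 of 6 feedback and growth control genes, and 3 in each of the other 4 roles were among them. limma takes this 1 control to vary as the acid libraries do, so whether it is typical of FaDu at pH 7.4 cannot be tested within these 6 libraries. Leaving out 1 acid library at a time gave 7 (without replicate 4), 8 (without replicate 3), 12 (without replicate 5), 15 (without replicate 2) and 28 (without replicate 1) members lower, where 0.146%, 0.151%, 0.628%, 0.669% and 18.7% of all genes were. Replicate 1 held the highest acid value for 24 of 32 members. It was also near the control in some markers. VIM was at 44.8 in acid replicate 1 and 36.2 in the control, against 2.08 to 4.42 in the other acid libraries. KRT14 was at 34178 and 41131, against 10196 to 15740. KRT5 was at 356737 and 392676, against 225800 to 266710, and SFN at 28419 and 31411, against 15148 to 18285. Acid replicate 1 was also the acid library nearest to the control for KRT6A, KRT17, COL1A1, CDH5, VIL1 and PLIN1. Among markers averaging at least 10 in acid FaDu, it was not the nearest for TP63, DSG3, KRT8, EPCAM, VWF and LGALS4. The part of this in the FaDu changes was not tested.

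All 3 secreted targets were far lower in acid FaDu than in the control. INHBE (ENSG00000139269) was at 48.9, 20.1, 43.7, 37.6 and 39.8 at pH 6.5 and at 899.6 in the control. The control was above every acid library by a wide margin, a log2 change of -4.59 ± 0.45 (limma adjusted p = 0.00811). STC2 (ENSG00000113739) held 2536, 1057, 791, 1088 and 1044 at pH 6.5 against 12898. Acid replicate 1 was the highest of its group and still far below the control (-3.43 ± 0.52, adjusted p = 0.018). FGF21 (ENSG00000105550) had 9 reads in all over the 5 acid libraries and 55 in the control. Pooled and scaled for sequencing depth, the control was 36.3 times higher (95% exact counting interval 17.8 to 83.6). Its fitted change of -4.62 ± 0.83 (adjusted p = 0.0256) depends on the pseudocount, since every acid library held 3 reads or fewer. STC2 lost its call without acid replicate 3 or 4 (adjusted p = 0.0636 and 0.065), and FGF21 without 3, 4 or 5 (adjusted p = 0.071, 0.0782 and 0.0568).

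Among the stress factors of FaDu, ATF4, DDIT3 and NUPR1 were lower. ATF4 was at 22224, 17206, 17305, 16902 and 17024 at pH 6.5 and 39807 in the control. The acid libraries other than replicate 1 were close together, all below the control (-1.14 ± 0.18, limma adjusted p = 0.0184), and the call was lost without acid replicate 3, 4 or 5 (adjusted p = 0.0686, 0.0681 and 0.0508). DDIT3 stood at 298, 179.7, 229, 226 and 176 against 1405, a change of -2.69 ± 0.29 (adjusted p = 0.00911). NUPR1 stood at 148, 136, 173, 126 and 246 against 1799, a change of -3.47 ± 0.34 (adjusted p = 0.00811). Both kept their calls whichever acid library was left out. ATF3 (-0.27), ATF5 (-0.33), CEBPB (-0.01) and CEBPG (-0.36) were not called.

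Feedback and growth control genes were also lower in acid FaDu. CHAC1 (ENSG00000128965) held 227, 125, 109, 124 and 147 at pH 6.5 and 1363 in the control (-3.26 ± 0.37, limma adjusted p = 0.0102). It was one of the members called lower with all libraries as labelled too (-1.99, adjusted p = 0.0018). DDIT4 held 2766, 2013, 1995, 2037 and 2606 against 10093 (-2.16 ± 0.21, adjusted p = 0.00811). TRIB3 (ENSG00000101255) held 2085, 1136, 1323, 1291 and 1493 against 6309 (-2.14 ± 0.29, adjusted p = 0.0158), with the call lost without acid replicate 3 or 4 (adjusted p = 0.0633 and 0.0594). In none of the 3 did an acid library come near the control. SESN2 fell as well (-1.54 ± 0.16, adjusted p = 0.00811), while PPP1R15A (-0.17) and EIF4EBP1 (0.23) were not called.

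**Figure D4:**
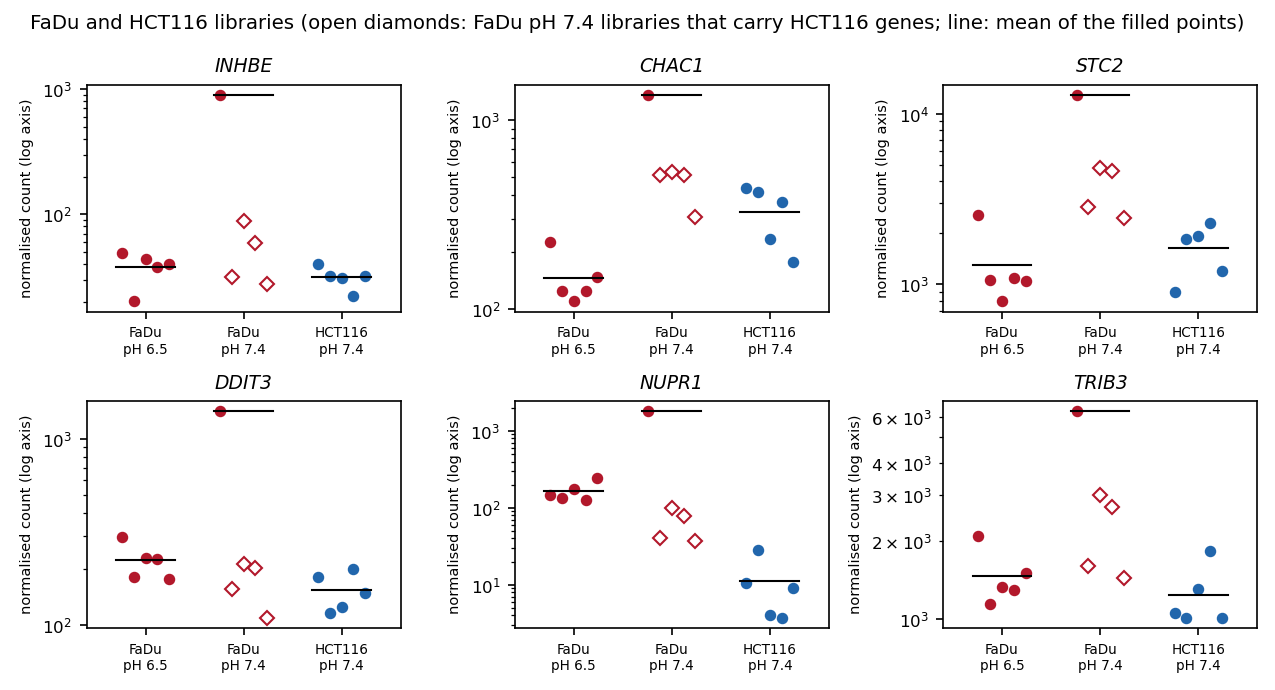
Normalised counts (log axes) of INHBE, CHAC1, STC2, DDIT3, NUPR1 and TRIB3 in FaDu at pH 6.5, FaDu at pH 7.4 and HCT116 at pH 7.4, with lines at the mean of the filled points. The single filled FaDu control is the highest point of each panel, and the open diamonds, FaDu controls that carry HCT116 genes, lie below it.

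Enzymes of amino acid synthesis were lower in acid FaDu as well. ALDH1L2 (ENSG00000136010) was at 138, 167, 118, 152 and 110.5 at pH 6.5 and 558 in the control (-2.03 ± 0.26, limma adjusted p = 0.015). PSAT1 (ENSG00000135069), the aminotransferase of serine synthesis, was at 3969.6, 3324, 2643, 3195 and 2906 against 7738 (-1.28 ± 0.20, adjusted p = 0.0198). PSPH (ENSG00000146733), the phosphatase that completes it, was at 2017, 1661, 1416, 1548 and 1651 against 3540.2 (-1.10 ± 0.18, adjusted p = 0.022). Each lost its call without acid replicate 3 (adjusted p = 0.0616, 0.0638 and 0.065) or 4 (adjusted p = 0.0594, 0.0709 and 0.0748), PSAT1 also without 5 and PSPH without 2 or 5. PHGDH (-0.33), SHMT2 (-0.91) and MTHFD2 (-1.01) were not called.

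ASNS (ENSG00000070669), which makes asparagine, held 3133, 2196, 1973, 2203 and 2119 in acid FaDu and 7724 in the control (-1.75 ± 0.23, limma adjusted p = 0.0154). CTH held 161, 111, 145, 135 and 133 against 665 (-2.28 ± 0.23, adjusted p = 0.00811). CBS (ENSG00000160200) held 2541, 2323, 2558, 2569 and 2672 against 4083 (-0.69 ± 0.12, adjusted p = 0.023). The acid libraries were all under the control for the 3 genes. CTH kept its call whichever acid library was left out, ASNS lost it without replicate 3 or 4 (adjusted p = 0.061 and 0.0594), and CBS without 2, 3, 4 or 5 (highest adjusted p = 0.0824) and in 1 fit over the 21 libraries (adjusted p = 0.673). PYCR1 (-1.72, adjusted p = 0.0748) and ALDH18A1 (0.32) were not called.

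Of the transporters, SLC6A9 (ENSG00000196517) was at 755, 532, 374, 497 and 690.3 in acid FaDu and 3478 in the control (-2.65 ± 0.35, limma adjusted p = 0.0154). SLC1A4 (ENSG00000115902) was at 766, 677, 499.5, 588 and 609.7 against 1384 (-1.15 ± 0.22, adjusted p = 0.0303). XPOT was at 7137, 5868, 5931, 6449 and 5514 against 9797 (-0.67 ± 0.15, adjusted p = 0.0461). The groups did not overlap for these genes, and the calls were lost without acid replicate 4 for SLC6A9 (adjusted p = 0.0594) and without 2, 3, 4 or 5 for SLC1A4 and XPOT. SLC7A5 (-0.997), SLC3A2 (-1.06) and SLC7A1 (-1.01) missed the threshold (adjusted p = 0.0711, 0.0512 and 0.0689), and DESeq2 called all 3 lower.

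The 4 FaDu controls kept apart still held genes restricted to FaDu, at 10.9, 66.6, 50.2 and 27.7% of their FaDu level in replicates 2, 3, 4 and 5. INHBE, at 900 in replicate 1, was at 31.5, 88.2, 59.3 and 27.6 in them, and DDIT3, at 1405, was at 155, 212, 201 and 108. Crediting every read to FaDu and dividing by that percentage, a step chosen after the values had been seen, gave INHBE at most 132, 118 and 99.5 in replicates 3, 4 and 5. By this upper bound, 15 of the 19 members lay below replicate 1 in replicate 3, 14 in replicate 4, 12 in replicate 5 and 4 in replicate 2. The same held for 42.2%, 26.0%, 16.7% and 10.0% of the 599 genes called lower. In replicate 3 the 4 members not below it were PSAT1, PSPH, CTH and XPOT. With the libraries as labelled, 5 of the 19 were still called lower, namely CHAC1, PSAT1, PSPH, CTH and STC2. MTHFD2 (-0.68, limma adjusted p = 0.0113) and PYCR1 (-1.81, adjusted p = 0.00052) were called lower in that fit as well. DDIT3 (-0.21, adjusted p = 0.779), NUPR1 (0.46, adjusted p = 0.692) and DDIT4 (-0.50, adjusted p = 0.335) were not. Nor were ATF4 (-0.41, adjusted p = 0.107), TRIB3 (-0.85, adjusted p = 0.0715), SESN2 (-0.42, adjusted p = 0.209), ALDH1L2 (-0.43, adjusted p = 0.416), ASNS (-0.71, adjusted p = 0.0602) and CBS (1.12, adjusted p = 0.146). Among transporters and secreted targets, SLC6A9 (-0.79, adjusted p = 0.181), SLC1A4 (-0.01, adjusted p = 0.982), XPOT (-0.19, adjusted p = 0.291), INHBE (-1.18, adjusted p = 0.246) and FGF21 (-1.86, adjusted p = 0.0794) lost their calls in that fit, while CEBPB was called higher (0.37, adjusted p = 0.0314). HCT116 genes in these controls enter that fit. CTH averaged 2345 in HCT116 at pH 7.4 and was at 1565, 857, 1187 and 2242 in them.

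Among the 97 different genes of the 6 other lists tested in FaDu 26 fell relative to the 1 control, which is 26.8% beside 3.12% of all genes. Without acid replicate 3 only 29 genes in all were called lower, and without acid replicate 4 only 28, members included. The 26 calls therefore cannot all have been kept in these fits, and which of them were lost is not given here. All 16 targets of the ATF6 and XBP1 branches fell, with the chaperone HSPA5 at 17942 against 81339.8 (-2.20 ± 0.26, limma adjusted p = 0.0111), HYOU1 at -2.13 ± 0.44 (adjusted p = 0.0356) and CRELD2 at -2.13 ± 0.31 (adjusted p = 0.0169). With the libraries as labelled 9 of the 16 were lower, where 22.3% of all genes were. Of 14 other ATF4 targets 6 fell, among them VEGFA (-2.16 ± 0.28), VLDLR (-1.80 ± 0.35) and GDF15 (-1.64 ± 0.31). Of 20 tRNA synthetases 2 fell, GARS1 (-0.89 ± 0.21) and CARS1 (-0.79 ± 0.15), and 2 of 13 other transporters, SLC7A8 (-2.03 ± 0.30) and the cystine carrier SLC7A11 (-1.28 ± 0.13). None of 15 eIF2α kinase and eIF2B genes and none of 20 folate and methionine enzymes passed limma, edgeR or DESeq2 in either direction. At an unadjusted p under 0.05, 2 of the former were higher and 3 lower, and 1 of the latter was higher. No gene of the 6 lists rose by limma or edgeR, with 1 called by DESeq2 and 6 higher at an unadjusted p under 0.05. CRELD2, VLDLR and SLC7A11 lost their calls with the libraries as labelled (adjusted p = 0.996, 0.666 and 0.217).

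The difference of the pH change between lines was tested in 1 limma fit over the 21 libraries. Between HCT116 and SiHa 13 of 33 members differed, where 24.5% of all genes did. PHGDH gave -1.99 ± 0.22 (adjusted p = 2.11e-06), the HCT116 change minus the SiHa change, and -0.90 with the libraries as labelled, where the call was lost (adjusted p = 0.242). DDIT4 (1.95 ± 0.41, adjusted p = 0.00172) and SLC3A2 (1.32 ± 0.33, adjusted p = 0.00588), called lower in SiHa and not in HCT116, differed as well, SLC3A2 not without HCT116 pH 6.5 replicate 1 (adjusted p = 0.0909). ATF4 differed too, by -0.75 ± 0.24 (adjusted p = 0.0293). That call was lost without SiHa pH 7.4 replicate 4 or 5 (adjusted p = 0.078 and 0.0602) and without HCT116 pH 6.5 replicate 3, where the difference was -0.33 (adjusted p = 0.339). Without HCT116 pH 6.5 replicate 3, 7 members differed, where 21.4% of all genes did.

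Between FaDu and SiHa 23 members differed, where 14.9% of all genes did, and between HCT116 and FaDu 19, where 15.9% did. Both rest on the 1 FaDu control, and with the libraries as labelled the counts were 13 (28.6% of all genes) and 9 (23.7%), beside 12 for HCT116 and SiHa (20.8%). All 6 serine and one-carbon enzymes were among the 23, from -0.91 for PSPH to -2.38 for ALDH1L2, FaDu minus SiHa. With the libraries as labelled MTHFD2 and SHMT2 still differed, and PHGDH, PSAT1, PSPH and ALDH1L2 did not pass (adjusted p = 0.371, 0.0627, 0.349 and 0.207). DDIT3 differed by -3.82 ± 0.57 (limma adjusted p = 0.000151; -1.44, adjusted p = 0.0732, as labelled), and SHMT2 by -1.97 ± 0.27 (adjusted p = 7.16e-05). The 3 pairs share lines, so they are not independent.

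CTH was the only member with the same call in all 3 lines. Across alternatives that include the libraries as labelled, other scalings, count models, 1 library left out at a time and replicate 1 left out, its call was lost in 0 of 20 in SiHa, 0 of 19 in HCT116 and 0 of 15 in FaDu. The fits as labelled could hardly lose it in HCT116 and FaDu. CTH was at 693, 335 and 306 in the HCT116 acid libraries kept apart, replicates 5, 6 and 7, lower than in the remaining ones. Replicates 6 and 7 held genes restricted to HCT116 at only 1.94 and 0.581%, and SiHa at pH 6.5 held CTH at 260 to 403. In the mixed FaDu controls it was at 857 to 2242, higher than in replicate 1. The size of the fall still differed, by -0.83 ± 0.23 between HCT116 and SiHa (limma adjusted p = 0.0116, but 0.0513 without HCT116 pH 6.5 replicate 3) and by -1.64 ± 0.27 between FaDu and SiHa (adjusted p = 0.000428). CBS, which supplies CTH with cystathionine, did not share the pattern. It was lower in FaDu, not called in SiHa, and at no more than 35.4 in the remaining HCT116 libraries.

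**Figure D5:**
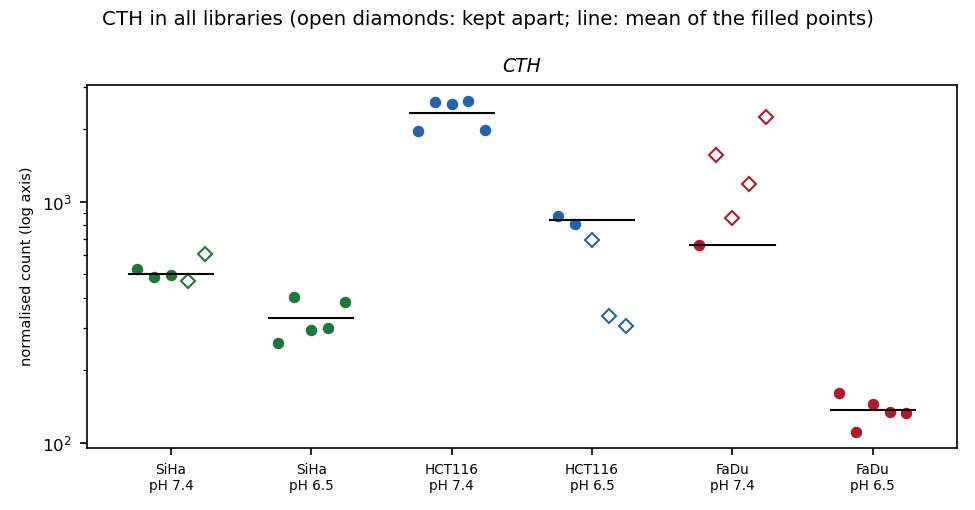
CTH normalised counts (log axis) in every library of the 6 groups, with lines at the mean of the filled points and libraries kept apart as open diamonds. In each line the filled pH 6.5 points lie below the filled pH 7.4 points, which in FaDu are a single library at 665.

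Read sharing with near copies limits 3 members. The processed pseudogene ATF4P3 averaged 194 normalised counts over the 30 libraries, PSPHP1 433 and SLC7A5P1 40.0, and how the counting divided reads between these and ATF4, PSPH and SLC7A5 is not given in the sources used here.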

How the data were processed

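RNA sequencing measured transcripts in 30 libraries of 6 groups. Per the submitters' processing notes, the tools used were bcl2fastq 2.20, FastQC, Trimmomatic 0.38, STAR 2.6.1d and DESeq2 1.22.2, with the build GRCh37. The deposited values are gene counts divided by size factors, a normalised signal per gene set by the authors, here called normalised counts. Dividing by the value of 1 read gave whole reads within a tolerance of 0.01 for 100% of values, and 21.0 to 55.7 M reads per library. Of the gene identifiers, 35466 had a symbol and 2656 had none.

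Each line was fitted alone with limma 3.58.1 (R 4.3.3, trend) on log2(normalised count + 1), which understates changes of low genes, over genes averaging 10 or more in at least 1 pH group. P-values were adjusted by Benjamini-Hochberg over all genes tested. Differences between lines came from 1 fit over 21 libraries. SE is the limma standard error. Fits with edgeR 4.0.16 and DESeq2 1.42.0 on recovered reads, other pseudocounts (0.5 and 5), filters and scalings, all libraries as labelled, and each library left out were the alternatives. Leaving out the 4 libraries high in FOS was added after the data had been seen.

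The 33 members and the other gene lists were chosen with earlier results of these data known. Values in every library are given per line for ATF4 and, in each role, for up to 3 called members with the largest absolute log2 change, and from each other list up to 3 called genes are named by the same measure. The statistics were tested on simulated data. Libraries that shared a replicate number between pH groups did not all deviate together, and the main fits did not pair them. The libraries high in FOS did share a replicate number at both pH values within their lines.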

Additional observations from a re-analysis of the deposited data

Results flagged for a closer look

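In groups of 5 libraries, a library was marked where its gap to the nearest other exceeded 0.710 of the group's range (Dixon's critical value at 95%). Of 95 member groups checked, 16 held such a library, where about 5% are marked by chance. FaDu pH 6.5 replicate 1 stood above its group for ATF4 (22224 normalised counts), ATF5 (1663), SHMT2 (12127), ASNS (3133), PYCR1 (3614), SLC3A2 (23260), SLC7A1 (7709) and STC2 (2536). SiHa pH 6.5 replicate 1, high in FOS, stood above its group for ATF3 (4880), CHAC1 (271), PPP1R15A (5677) and SESN2 (873). HCT116 pH 7.4 replicate 1, also high in FOS, was set apart for PPP1R15A (5886) and SLC6A9 (565), HCT116 pH 7.4 replicate 3 for NUPR1 (27.9), and SiHa pH 6.5 replicate 7 for SLC6A9 (1844).

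The log2 pH change of a member differed between lines, by the limma test of the difference (adjusted p under 0.05), in 55 cases. For HCT116 minus SiHa, it was below 0 for ATF4 by -0.75, CEBPB by -0.65, EIF4EBP1 by -0.81, PHGDH by -1.99, SHMT2 by -0.99, PYCR1 by -1.15, CTH by -0.83 and XPOT by -0.96. It was above 0 for DDIT4 by 1.95, SESN2 by 1.53, SLC7A5 by 1.00, SLC3A2 by 1.32 and INHBE by 1.95. For FaDu minus SiHa, it was below 0 for ATF4 by -1.61, DDIT3 by -3.82, CEBPG by -0.84, NUPR1 by -4.28, TRIB3 by -2.52, CHAC1 by -3.66, PHGDH by -1.52, PSAT1 by -1.07, PSPH by -0.91, SHMT2 by -1.97, MTHFD2 by -1.46, ALDH1L2 by -2.38, ASNS by -1.86, PYCR1 by -2.81, CTH by -1.64, SLC7A1 by -1.06, SLC6A9 by -2.08, SLC1A4 by -1.54, XPOT by -1.26, INHBE by -3.76, STC2 by -3.24 and FGF21 by -5.28. It was above 0 for ALDH18A1 by 0.61. For HCT116 minus FaDu, it was below 0 for EIF4EBP1 by -0.82 and ALDH18A1 by -0.51. It was above 0 for DDIT3 by 4.06, NUPR1 by 5.69, TRIB3 by 2.01, CHAC1 by 2.96, DDIT4 by 2.32, SESN2 by 2.203, PSAT1 by 1.26, PSPH by 1.25, SHMT2 by 0.98, ALDH1L2 by 2.16, ASNS by 1.73, PYCR1 by 1.65, SLC6A9 by 1.94, SLC1A4 by 1.28, INHBE by 5.72, STC2 by 3.205 and FGF21 by 5.42. Differences with FaDu rest on 1 FaDu control library.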

How the results depend on the processing

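Changing the pseudocount, raising the mean to 50, TMM scaling and edgeR or DESeq2 on recovered reads turned the sign of no member called in either fit. Members called in neither fit turned sign under edgeR and DESeq2 (2 in HCT116 and 1 in FaDu under each) and under TMM scaling (1 in FaDu). No member's call was lost in FaDu or SiHa under these, except that FGF21 has no adjusted p in DESeq2. In HCT116, edgeR lost ATF5. With edgeR, 2912 genes were higher and 2965 lower in SiHa, 2068 and 1848 in HCT116, and 599 and 769 in FaDu, where limma called 812 and 599.

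With all libraries as labelled, among members called in either fit, PHGDH (0.41), INHBE (-0.56) and ATF5 (0.0359) turned sign in HCT116, and CBS (1.12), NUPR1 (0.46) and CEBPB (0.37) in FaDu. Members called in neither fit that turned sign numbered 9 in HCT116, 5 in FaDu and 2 in SiHa. FaDu then had 1 member higher and 7 lower, with 4727 genes higher and 4388 lower. Members that differed between FaDu and SiHa numbered 13, with DDIT4 at 1.24, and between HCT116 and FaDu 9, with ALDH1L2 at -0.18. The libraries kept apart are in those fits. With no filter on low values, 1435 of 35333 genes were higher in HCT116 and 1700 lower. Without a filter on low values, HCT116 had 1 member higher and 2 lower, and FaDu 479 genes higher. DESeq2 called 1399 genes higher and 1286 lower in FaDu, and 1 fit over the 21 libraries 1391 lower. The cause was not tested. Without the 4 libraries high in FOS, an alternative chosen after the data had been seen, HCT116 had 1 member higher and 10 lower.

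Leaving out 1 library at a time gave 7 to 11 members higher and 4 to 8 lower in SiHa, 0 to 4 and 1 to 8 in HCT116, and 0 and 7 to 28 in FaDu. In SiHa the low of 4 came without pH 7.4 replicate 5. In HCT116 no member was higher and 8 were lower without pH 6.5 replicate 1, and 1 was lower without pH 6.5 replicate 3. Leaving out HCT116 control replicate 1 gave 7 members lower, where 2723 of 18833 genes were. Without control replicate 3, 2 were higher and 2 lower, beside 1426 and 1736 of 18891 genes. Without control replicate 5, 1 was higher and 2 lower, beside 1299 and 1624 of 18916 genes. Without control replicate 7, 1 was higher, beside 1280 of 18863 genes. Genes called ranged over 1736 to 3088 higher and 1815 to 3385 lower in SiHa, 850 to 2427 and 1348 to 2723 in HCT116, and 38 to 3430 and 28 to 3609 in FaDu. Members that differed between lines numbered 7 to 16 for HCT116 and SiHa, 23 to 23 for FaDu and SiHa, and 17 to 24 for HCT116 and FaDu. For most of these fits between lines the share of all genes was not computed, so the ranges are a description. The FaDu control cannot be left out.

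Libraries with the same replicate number did not all deviate together (correlations 0.32, 0.05 and 0.08 in SiHa, 0.17 and 0.06 in HCT116). The main fits leave the numbers out. Replicate 1, which gave the 0.32 and the 0.17, was still high in FOS at both pH values in these lines. In FaDu, with 1 control, this could not be checked. With the replicate block, HCT116 had 1 member and 1145 genes higher. With the replicate block and all libraries as labelled, HCT116 had 1 member and 593 genes higher and 2 members and 814 genes lower, with PHGDH at 0.41, INHBE at -0.56 and ATF5 at 0.0359. FaDu then had 4502 genes higher, and 12 members and 4349 genes lower, with CBS at 1.12 and NUPR1 at 0.46. With the replicate block SiHa had 10 members higher and 7 lower. Depths of 25.3 to 50.8 M reads per library left several members near the limit of 3 reads in some libraries. These were FGF21 outside FaDu pH 7.4 replicate 1, INHBE in SiHa, and NUPR1 and CBS in HCT116.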
